A study of Mus musculus with 13 samples.

Results

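Far intergenic peaks are stretches of open chromatin that lie outside annotated genes and a long way from any gene start. Of the 38620 peaks in a table of chromatin accessibility in sorted mouse microglia, 2142 were taken as far intergenic: the deposited annotation placed them in distal intergenic DNA, the nearest transcription start site was over 50000 bp away, and they lay on an autosome. No accessibility value entered this choice. The annotation held 9468 intergenic peaks in all, so the far ones were a minority of them, and the member nearest to the limit lay 50036 bp from a start site while the nearest excluded peak lay 49989 bp from one. Positions are those of the deposited table, on GRCm38 (mm10).

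The assay was ATAC-seq: a transposase cuts and tags DNA wherever nucleosomes leave it exposed. The animals were male C57BL/6J mice, injected into the peritoneum at 10 weeks of age and again 5 weeks later, and microglia were sorted 3 hours after the last injection as live cells with high CD11b, intermediate CD45 and no Ly6c. Each injection held either LPS at 1 mg/kg, a bacterial endotoxin that triggers Toll-like receptor 4, or PBS. Between the injections the mice were gavaged for 5 days with vehicle or with BLZ945 at 169 mg/kg per day, a blocker of CSF1R, the growth factor receptor that microglia need to survive. BLZ945 empties the brain of most microglia, which then refill it; the share of later cells that descends from survivors is not stated by the labels. LBL received LPS, BLZ945 and LPS; LL received LPS, vehicle and LPS; PBL received PBS, BLZ945 and LPS. PL received PBS, vehicle and LPS, PBP received PBS, BLZ945 and PBS, and PP received PBS, vehicle and PBS. There were 3 libraries of PBL and 2 of every other group. Each was made from 40000 cells of each of 2 pooled animals and is named by their numbers, so the spread given here is between pools.

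Open chromatin far from genes is mostly made of enhancers and related elements, to which transcription factors bind and from which they act on promoters over long distances. In macrophages, PU.1 and other lineage factors open enhancers, and signals such as LPS add NF-kB, AP-1 and interferon regulatory factors to them. Microglia hold part of their identity in such distal elements, several of them around genes for lineage regulators such as Sall1, and some enhancers of macrophages keep a changed state after an inflammatory stimulus has gone. The gene whose start lies nearest to a distal element is a label for its place and need not be the gene it acts on.

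Bases are shown for 4 members because they are the called members, as defined below, that reach into a RefSeq promoter window, the 250 bases before and 50 after an annotated gene start. In all, 39 members reached into such a window, 38 of them could be tested and 4 were called. The 4 starts belong to long noncoding RNA genes of RefSeq (GRCm38.p6) that the table's own annotation did not use, so these peaks count as intergenic there. The sequences run 5′ to 3′ along the strand of the gene and cover the overlap of peak and window, with the bases from the annotated start onward in capitals; they were chosen after their values were seen.
Gm31223, chr8:80948706-80949005, plus strand: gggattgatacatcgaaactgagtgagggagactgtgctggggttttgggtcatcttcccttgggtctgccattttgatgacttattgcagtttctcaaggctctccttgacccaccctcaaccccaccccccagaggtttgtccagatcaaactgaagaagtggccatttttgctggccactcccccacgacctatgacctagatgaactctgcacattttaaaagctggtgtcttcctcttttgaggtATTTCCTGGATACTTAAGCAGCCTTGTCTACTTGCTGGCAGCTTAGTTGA
Gm31342, chr15:67039353-67039642, plus strand: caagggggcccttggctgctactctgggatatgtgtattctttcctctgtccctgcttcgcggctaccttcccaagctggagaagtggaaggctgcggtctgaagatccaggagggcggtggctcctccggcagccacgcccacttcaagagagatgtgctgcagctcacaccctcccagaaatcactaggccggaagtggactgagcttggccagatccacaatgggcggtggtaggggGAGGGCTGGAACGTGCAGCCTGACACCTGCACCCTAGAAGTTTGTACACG
Gm36884, chr10:125744846-125745069, minus strand: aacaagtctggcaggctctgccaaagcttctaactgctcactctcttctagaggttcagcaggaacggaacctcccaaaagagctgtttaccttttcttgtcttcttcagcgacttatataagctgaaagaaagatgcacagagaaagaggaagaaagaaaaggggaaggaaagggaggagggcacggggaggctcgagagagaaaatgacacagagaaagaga
Gm33448, chr6:100163275-100163574, minus strand: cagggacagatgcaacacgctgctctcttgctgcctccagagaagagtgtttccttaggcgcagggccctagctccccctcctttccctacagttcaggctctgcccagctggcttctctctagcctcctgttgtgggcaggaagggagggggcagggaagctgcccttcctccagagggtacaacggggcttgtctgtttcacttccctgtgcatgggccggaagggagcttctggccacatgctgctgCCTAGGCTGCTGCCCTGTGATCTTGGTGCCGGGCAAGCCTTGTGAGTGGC

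The Gm31223 peak, which the table labels by Usp38 at 65862 bp, was more open after a first LPS in both arms. It had 39.1 and 37.3 CPM (a unit that corrects peak counts for library depth) in PL, against 16.8 and 22.96 CPM in PP, a log2 fold change of 0.93 ± 0.27 (SE, edgeR quasi-likelihood test, adjusted p = 0.0157). In PBL it had 31.6, 41.6 and 33.7 CPM, against 17.1 and 16.6 CPM in PBP (log2 1.09 ± 0.23 by edgeR, adjusted p = 0.000222). In both arms every LPS pool lay above every PBS pool. The Gm31342 peak, labelled by Ndrg1 at 69713 bp, rose in PBL with 30.9, 32.4 and 26.8 CPM, against 15.9 and 12.8 CPM in PBP (log2 1.03 ± 0.24 by edgeR, adjusted p = 0.00119). Its pools did not overlap there. In the other arm PL with 18.97 and 29.3 CPM also lay above PP with 17.9 and 16.0 CPM, but the change did not pass the test (log2 0.53 ± 0.30, adjusted p = 0.308 by edgeR). The other two were lower in PBL. The Gm36884 peak had 11.2, 12.0 and 12.5 CPM in PBL, against 24.4 and 18.9 CPM in PBP (log2 -0.86 ± 0.25 by edgeR, adjusted p = 0.014), and the Gm33448 peak differed less, by a log2 of -0.43 ± 0.13 (edgeR, adjusted p = 0.0156). At the Gm36884 peak PL had 10.7 and 13.8 CPM, against 9.47 and 7.98 CPM in PP, and both PBP pools stood above every other pool. Neither peak passed in PL against PP (log2 0.50 ± 0.40 and 0.11 ± 0.16, adjusted p = 0.508 and 0.746 by edgeR).

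As letters, 6 short motifs were searched on both strands of these 4 sequences: GAGGAAGT for PU.1, TGANTCA for AP-1, GGGANTTTC for NF-kB, GAAANNGAA for interferon regulatory factors, TTGCNNAA for C/EBP and AGNNGGCGC for CTCF, with N for any base. None of the 4 held any of them, which says only that these letters are not in these windows. Among 32851 RefSeq promoter windows the motifs were found in 3.20%, 7.81%, 1.11%, 8.56%, 10.8% and 7.23%, in the order given.

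The far intergenic peaks were narrow and weak beside promoter peaks and much like other distal peaks. Their median width was 378 bp (quartiles 264 and 529 bp), against 653 bp for the 14061 promoter peaks, and the median over members of the mean level was 12.3 CPM, against 33.9 CPM for promoters, 12.4 CPM for the 12137 intron peaks and 12.6 CPM for the 7326 other intergenic peaks. The median distance to a start site was 88664 bp and the longest 1472269 bp. In all, 916 genes served as the nearest one, upstream of the start in 1123 cases and downstream in 1019. A known RefSeq gene span covered 396 members (18.5%), and 336 of these spans included a long noncoding RNA while 34 included a protein-coding gene. Members made up 2.49% of the peaks on chromosome 11, the lowest share, and 9.53% on chromosome 13, the highest.

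The members lay in runs along the chromosomes. When those at most 12.5 kb apart were joined, the 2142 members fell into 1384 stretches, and 1186 of them (55.4%) shared a stretch with at least 1 other. The stretch with most members held 10, over 42267 bp at chr2:160208313-160250579, 60814 bp from Gm826. Its summed level was 277 and 287 CPM in PL, against 202 and 187 CPM in PP, and 270.4, 282 and 271 CPM in PBL, against 227 and 221 CPM in PBP. It thus stood higher in every first-LPS pool than in every PBS pool, and 3 of its members were called higher in each comparison. Around Chd7, a chromatin remodeller, 9 members at chr4:8910370-8939304 summed to 187 and 205 CPM in PL, against 139.9 and 142 CPM in PP, and to 208, 205 and 184 CPM in PBL, against 133 and 159 CPM in PBP, again without overlap. Another stretch of 9 members, at chr4:9110051-9136129 near Clvs1, summed to 209 and 209.8 CPM in PL, against 167 and 153 CPM in PP. Its 187, 215 and 198 CPM in PBL overlapped the 194 and 177 CPM in PBP, and no member was called there in PBL against PBP. The stretch of 9 members at chr4:3067523-3090367 near Vmn1r2 was lower in both PL pools than in both PP pools and is taken up below. Of 725 pairs of neighbours at most 12.5 kb apart, both were called in 35 for PL against PP, none of them in opposite directions, and in 33 for PBL against PBP, 2 of them in opposite directions; neighbouring peaks share libraries and may share fragments.

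Depth and sorting set limits on these values. The libraries held 927840 to 2772688 rounded counts in peaks, lowest in the PP pools, and a tested member had a median of 12 to 33 counts per library. PBL, LL and LBL were sorted on one instrument, PL, PBP and PP on another, and each group was isolated on a single day of its own except that PL 1_2 shared the day of PBP and PL 3_4 that of PP. In PBL against PBP, LL against PL and PBL against PL, instrument and day cannot be told apart from the treatment. PL against PP, PBP against PP, LBL against PBL and LBL against LL stay within 1 instrument, but the day cannot be told apart from the treatment in LBL against PBL or LBL against LL, and in PBP against PP it can be taken into account only through the PL pools. The members' counts in the PL pair differed by more than counting noise, with a chi-square per degree of freedom of 1.49. The PBL pools did so by less, at 1.07 (chi-square p = 0.00118), and the other groups had 0.961 to 1.03. PL 3_4 had the lowest share of counts in promoters of all 13 libraries, at 53.2%. PBL 3_4 and PBL 4_5 both carry the animal number 4, and the labels do not say if 1 mouse entered both.

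The sorted cell type was checked at promoters. Of 10 microglial marker genes 9 had a promoter peak, all but Fcrls, with a summed level of 400.5 to 415 CPM in PL, against 454 to 499.6 CPM in PP, and of 399.7 to 418 CPM in PBL, against 541 to 585 CPM in PBP. Neutrophil, lymphocyte, neuronal and vascular markers, 4 genes each, had no promoter peak. Of 4 monocyte markers Vcan had one, at 24.3 to 34.6 CPM in PL, against 18.9 to 20.0 CPM in PP, and at 32.3 to 41.6 CPM in PBL, against 28.7 to 30.5 CPM in PBP; Ccr2, Ly6c2 and Plac8 had none. Astrocyte, oligodendrocyte and border macrophage markers stayed at 79.9 CPM or less. The part of other cells in the results below was not tested, and in bulk libraries a change in accessibility per cell cannot be told apart from a change in the make-up of the cells.

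PL against PP compared a first LPS with PBS in microglia that were never depleted. Of the 2062 members with enough counts to test, 191 were called higher and 51 lower in PL, where called means an adjusted p under 0.05 in edgeR's quasi-likelihood test, adjusted over all 37516 tested peaks. That is 9.26% and 2.47% of the members, beside 4.77% higher and 2.69% lower among all tested peaks. Promoter peaks went the other way, with 2.25% higher and 4.64% lower. Other distal classes leaned the same way as the members. Intron peaks had 6.46% higher and 1.24% lower, and other intergenic peaks 5.43% and 1.43%. The median log2 fold change was 0.17 over the members, against 0.01 over all peaks, and 62.9% of members were above 0. It was 0.13 over intron peaks and 0.07 over other intergenic peaks. With libraries scaled on promoter peaks alone the median over all peaks moved to 0.10 and that over members to 0.27.

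The clearest rise was at chr16:93246704-93247456, a 753 bp peak in the gap between Runx1, a transcription factor of blood and myeloid cells, and Setd4. Its level was 59.3 and 61.8 CPM in PL, against 10.5 and 8.98 CPM in PP. It was 50.6, 58.3 and 56.8 CPM in PBL, against 6.71 and 6.79 CPM in PBP. LL with 74.4 and 66.0 CPM and LBL with 63.7 and 63.0 CPM were as open as the first-LPS pools, and every LPS pool lay far above all 4 PBS pools. The rise was 6.19-fold in PL (log2 2.63 ± 0.28, adjusted p = 2.19e-12 by edgeR) and 8.19-fold in PBL (log2 3.03 ± 0.26, adjusted p = 2.74e-19 by edgeR). The annotation names the start of 1810053B23Rik, 105733 bp away, as the nearest.

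The other 4 rises with the smallest p had the same shape. A peak at chr2:73037288-73038141, between Sp3, a zinc-finger activator, and Ola1, had 67.6 and 77.8 CPM in PL, against 21.0 and 20.0 CPM in PP (3.55-fold, adjusted p = 1.12e-09 by edgeR). One at chr1:64305422-64305982, 183140 bp upstream of Klf7, a Krüppel-like factor, had 55.7 and 69.2 CPM in PL, against 18.9 and 14.0 CPM in PP (3.81-fold, adjusted p = 4.98e-09 by edgeR). Another at chr12:35799072-35799862, between Ahr, the aryl hydrocarbon receptor, and Agr3, had 79.4 and 102 CPM in PL, against 35.8 and 31.9 CPM in PP (2.69-fold, adjusted p = 1.2e-08 by edgeR). In each of them both PL pools lay above both PP pools by more than the spread within either pair. At chr19:21031643-21032380, which overlaps the RefSeq span of Tmc1, PL had 84.2 and 119 CPM, against 41.0 and 33.9 CPM in PP. That was a 2.73-fold rise (adjusted p = 1.27e-09 by edgeR).

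The falls were of another kind, because PP often stood apart from every other group. At chr1:95451898-95452166, 138270 bp from Fam174a, PL had 13.0 and 6.39 CPM, against 34.7 and 31.9 CPM in PP (3.47-fold lower, adjusted p = 1.14e-05 by edgeR). PBP, which received no LPS, had 14.6 and 18.1 CPM there, as low as PBL with 13.3, 18.04 and 11.7 CPM. The same held at chr2:3964459-3964651, 53066 bp upstream of Frmd4a, with 17.2 and 12.2 CPM in PL, against 43.1 and 38.9 CPM in PP (2.8-fold lower, adjusted p = 3.07e-05 by edgeR), and with 16.5 and 21.9 CPM in PBP. Over the 51 members called lower the median of the group means was 11.6 CPM in PL, 14.9 CPM in PBP and 25.7 CPM in PP, so by level PBP lay nearer to PL than to PP; these are values that chose the members and are given as a description. Of the 51, 13 lay in 2 regions of chromosome 4 taken up below. The PP pools were the shallowest libraries, and the part of depth in these falls was not tested. With the isolation day as a term, which rests on the 2 PL pools, PL against PP gave 268 higher and 63 lower. Of the 242 main calls 231 were among them, and the falls near Fam174a and Frmd4a were kept.

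The counts rest on few pools. Without PL 3_4, 77 members were called in place of 242, and leaving out a PP pool gave similar counts, 81 for 1_2 and 89 for 3_4. DESeq2 called 78, all of them among the 242. The named peaks above were called with each pool left out, and DESeq2 called them too except the one near Fam174a.

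**Figure D1:**
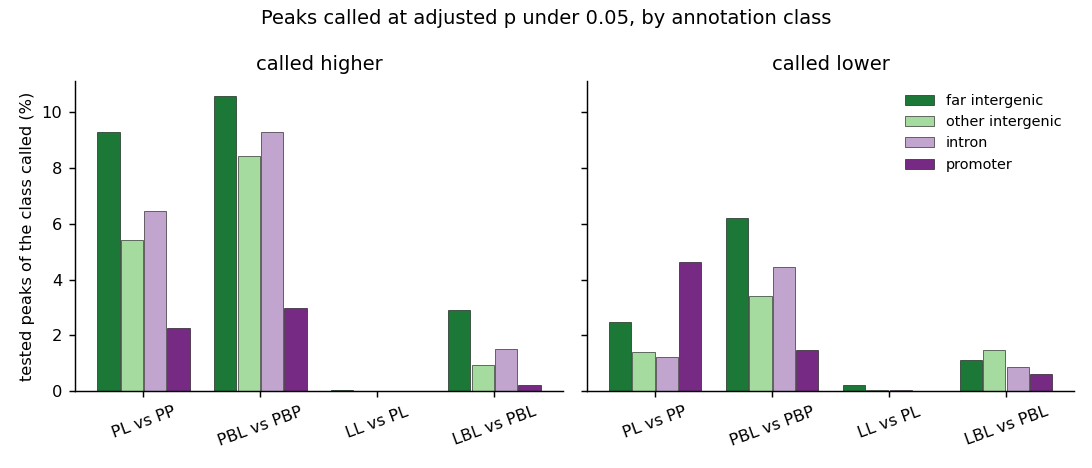
Share of tested peaks called higher (left) and lower (right) at an adjusted p under 0.05 by edgeR, in %, for 4 comparisons along the horizontal axis and 4 annotation classes as bars. Far intergenic peaks reach 9.26% higher in PL against PP and 10.6% in PBL against PBP. Intron peaks reach 6.46% and 9.27%, other intergenic peaks 5.43% and 8.41%, and promoter peaks 2.25% and 3.00%.

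PBL against PBP made the same comparison in microglia that had refilled the brain after BLZ945. Here 218 members were called higher and 128 lower by edgeR, which is 10.6% and 6.21% of those tested, beside 6.74% and 3.23% of all peaks. Intron peaks had 9.27% higher and 4.43% lower, and other intergenic peaks 8.41% and 3.40%. The median log2 fold change over the members was -0.04, against 0.00 over all peaks, so the calls did not come with a shift of the whole set, unlike in PL against PP. Over the 218 members called higher the median of the group means was 24.3 CPM in PBL and 10.4 CPM in PBP, with 23.8 CPM in PL and 12.3 CPM in PP. Over the 128 called lower it was 12.5 CPM in PBL and 23.8 CPM in PBP, with 15.2 CPM in PL and 18.2 CPM in PP, so at these members PBP stood above PP while PBL stood below PL, as a description.

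Of the members with the smallest p, 4 of the 5 that rose were also among the 5 named for PL against PP. The fifth, at chr19:21053463-21054035, 16337 bp beyond Tmc1, had 26.7, 38.4 and 35.2 CPM in PBL, against 4.88 and 6.79 CPM in PBP (5.9-fold, log2 2.56 ± 0.30, adjusted p = 9.43e-12 by edgeR). In the other arm it had 32.0 and 30.9 CPM in PL, against 12.6 and 9.98 CPM in PP. At both peaks near Tmc1 every LPS pool lay above every PBS pool.

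At each of the 5 named falls in PBL both PBP pools also lay above both PP pools. A peak at chr2:173335632-173336400, 59099 bp upstream of Pmepa1, a brake on TGF-beta signalling, had 21.1, 22.2 and 23.5 CPM in PBL, against 52.5 and 67.1 CPM in PBP (2.63-fold lower, adjusted p = 7.43e-10 by edgeR). In PL it had 26.1 and 26.6 CPM, against 50.5 and 47.9 CPM in PP, so all 5 first-LPS pools lay below all 4 PBS pools. At chr3:103401066-103401823, downstream of Trim33, which regulates SMAD signalling, PBL had 26.7, 25.9 and 20.5 CPM, against 58.6 and 73.9 CPM in PBP (2.75-fold lower, adjusted p = 1.51e-10 by edgeR). PL had 21.3 and 17.0 CPM there, below PP with 27.3 and 51.9 CPM. TGF-beta is a factor on which the microglial state depends, which is background for both genes. At chr10:40499247-40500303, between Cdk19 and Slc22a16, PBL had 49.2, 50.9 and 40.3 CPM, against 87.3 and 100.3 CPM in PBP (2.02-fold lower, adjusted p = 1.75e-08 by edgeR). At chr11:45545770-45546522, between Ebf1 and Clint1, PBL had 16.9, 14.8 and 16.1 CPM, against 42.1 and 46.8 CPM in PBP (2.78-fold lower, adjusted p = 1.85e-08 by edgeR). At both, no PBL pool reached a PBP pool.

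These 5 rises and 5 falls were called by DESeq2 as well and with each pool left out. The whole count was less firm: 178 members were called without PBP 1_2 and 178 without PBP 3_4, in place of 346. DESeq2 called 123, 91 of them higher and 32 lower, beside 218 and 128 in edgeR.

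The 2 first-LPS comparisons share no library, so their calls can be set side by side. In both, 103 members were called higher, which is 53.9% of the 191 in PL against PP and 47.2% of the 218 in PBL against PBP, and 15 were called lower, 29.4% of the 51 and 11.7% of the 128. No member was called in opposite directions. The same overlap was not counted over all tested peaks, so it is not shown to be particular to the members. Of the 191 members called higher in PL, 182 had a positive fold change in PBL against PBP, with a median log2 of 0.73, and of the 128 called lower in PBL, 95 had a negative one in PL against PP. Over the 103 shared rises the median of the group means was 34.1 CPM in LBL, 33.6 CPM in LL, 36.2 CPM in PBL and 35.7 CPM in PL, against 16.5 CPM in PBP and 15.3 CPM in PP. The levels after a second LPS were thus close to those after a first, as a description of members chosen by 4 of these groups. Over the 15 shared falls the medians were 30.6 CPM in LBL, 32.0 CPM in LL, 22.3 CPM in PBL and 24.4 CPM in PL, against 44.4 CPM in PBP and 43.0 CPM in PP.

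**Figure D2:**
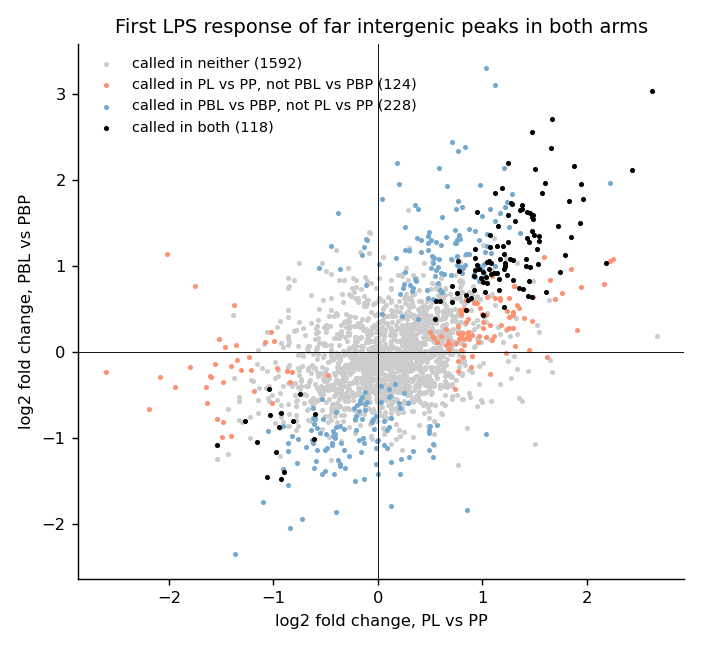
Log2 fold change of each of the 2062 tested far intergenic peaks in PL against PP (horizontal) and in PBL against PBP (vertical), coloured by the comparisons in which edgeR called it. The 118 peaks called in both lie in the upper right (103) or lower left (15), and the other two corners hold none of them.

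Whether the first LPS response differed between the arms was tested directly, as the fold of PBL over PBP set against that of PL over PP. Only 2 members passed in edgeR, 1 with a higher and 1 with a lower response in the repopulated arm, beside 0.0586% higher and 0.016% lower among all peaks. At chr9:23580157-23580552, 206225 bp from Bmper, a binder of BMP proteins, PBL had 11.9, 14.8 and 11.4 CPM, against 7.32 and 7.54 CPM in PBP, while PL had 4.74 and 3.73 CPM, against 18.9 and 9.98 CPM in PP. At chr18:25883190-25883937, 129033 bp upstream of Celf4, a neuronal RNA-binding protein gene, PBL had 43.5, 42.6 and 52.1 CPM, against 56.1 and 70.9 CPM in PBP, while PL had 59.9 and 71.4 CPM, against 37.9 and 40.9 CPM in PP. In both the pools of the arms moved in opposite directions without overlap. The differences in log2 response were 2.52 ± 0.56 (adjusted p = 0.0316 by edgeR) and -1.17 ± 0.25 (adjusted p = 0.0262 by edgeR). Both were lost in DESeq2, which called 0 members, and both were lost without PBL 1_2, PBL 3_4, PBP 3_4, PL 3_4 or PP 1_2. The number could also grow: without PL 1_2 edgeR called 59 members, both of these included, and with the replicate number as a block 12. At an unadjusted p under 0.05, 262 of the 2062 members differed in edgeR, beside 4158 of all 37516 tested peaks. With only 2 members passing, most of the calls found in 1 arm and not in the other are not shown to differ between the arms.

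LL against PL asked whether a first LPS, given 5 weeks earlier, changed the state reached after a later one. In never-depleted microglia edgeR called 1 member higher and 5 lower in LL, beside 0.0133% and 0.0506% of all peaks. At an unadjusted p under 0.05 it gave 191 of the 2062 members, beside 2933 of all 37516 tested peaks. In repopulated microglia, LBL against PBL gave 60 higher and 23 lower, 2.91% and 1.12% of the members, beside 0.973% and 0.928% of all peaks. Intron peaks had 1.53% higher and 0.861% lower there, and other intergenic peaks 0.947% and 1.48%. Scaled on promoter peaks alone, the split in LBL against PBL was 71 higher and 12 lower, and the median log2 over members was 0.17, against 0.11 with the usual scaling. All 5 members lower in LL were also lower in LBL, where they made up 21.7% of the 23. The 2 comparisons share no library, and this overlap too was not counted over all tested peaks.

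Those 5 were less open after a second LPS than after a first. At chr12:86819090-86819595, 65203 bp from Irf2bpl, LL had 15.5 and 20.1 CPM, against 26.7 and 47.9 CPM in PL (log2 -1.06 ± 0.23, adjusted p = 0.0217 by edgeR). LBL had 11.0 and 18.3 CPM, against 42.1, 42.6 and 51.3 CPM in PBL (log2 -1.61 ± 0.22, adjusted p = 2.06e-07 by edgeR). The pools with 2 LPS doses lay at the level of the PBS pools, PBP with 17.1 and 22.6 CPM and PP with 18.9 and 14.0 CPM. At chr16:84621258-84621723, 81444 bp upstream of Mir155hg, the host of an LPS-induced microRNA, LL had 14.5 and 16.1 CPM, against 24.9 and 42.1 CPM in PL (log2 -1.14 ± 0.24, adjusted p = 0.0179 by edgeR), and LBL had 13.6 and 16.2 CPM, against 22.5, 36.1 and 24.9 CPM in PBL. PBP with 15.9 and 14.3 CPM and PP with 10.5 and 17.96 CPM were again about as low as LL and LBL.

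At chr12:25213693-25214591, between Id2, an inhibitor of helix-loop-helix factors, and Rnf144a, LL had 58.4 and 60.4 CPM, against 81.8 and 107 CPM in PL (log2 -0.67 ± 0.15, adjusted p = 0.0237 by edgeR). LBL had 41.6 and 38.6 CPM, against 74.4, 91.6 and 89.5 CPM in PBL (log2 -1.11 ± 0.15, adjusted p = 2.06e-07 by edgeR). Here LL stayed above PP with 42.1 and 51.9 CPM, while LBL lay within the range of the PBS pools. At chr8:9008081-9008843, between Arglu1 and Fam155a, LL had 15.0 and 10.1 CPM, against 21.9 and 35.1 CPM in PL (log2 -1.23 ± 0.26, adjusted p = 0.0179 by edgeR), and LBL had 6.50 and 13.2 CPM, against 23.2, 23.1 and 30.1 CPM in PBL. At chr1:77280490-77281331, 96276 bp downstream of the start of Epha4, an ephrin receptor, LL had 6.99 and 8.05 CPM, against 18.97 and 20.8 CPM in PL (log2 -1.39 ± 0.30, adjusted p = 0.0227 by edgeR). LBL had 11.7 and 9.14 CPM there, against 17.6, 20.4 and 19.8 CPM in PBL. That last peak was not raised by a first LPS, since PP with 12.6 and 20.0 CPM and PBP with 17.1 and 21.1 CPM overlapped PL and PBL. The 5 calls in LL against PL were lost without PL 3_4, without LL 1_2, without LL 3_4 and in DESeq2, which called 0 members there, while without PL 1_2 all 6 calls stayed among 24; 191 members had an unadjusted p under 0.05 in edgeR.

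The member higher in LL was chr14:62001339-62001994, 290595 bp upstream of Rnaseh2b, with 37.9 and 47.1 CPM in LL, against 19.6 and 18.1 CPM in PL (log2 1.19 ± 0.22, adjusted p = 0.00222 by edgeR). PP with 37.9 and 33.9 CPM and PBP with 44.5 and 30.2 CPM were as open as LL, and the call was lost without PL 3_4, without LL 3_4 and in DESeq2.

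The rises in LBL against PBL lay near genes of several kinds. At chr10:100159736-100160838, 71680 bp from the start of Kitl, the ligand of the KIT receptor, LBL had 69.5 and 76.7 CPM, against 37.9, 42.1 and 35.9 CPM in PBL (1.9-fold, log2 0.93 ± 0.15, adjusted p = 1.86e-05 by edgeR). PBP with 51.3 and 55.1 CPM and PP with 45.2 and 45.9 CPM lay between them, and LL had 63.9 and 60.4 CPM. At chr12:39039766-39040178, 202368 bp from the start of Etv1, an ETS-family factor, LBL had 38.3 and 43.7 CPM, against 19.7, 20.4 and 22.0 CPM in PBL (adjusted p = 0.000944 by edgeR). At chr19:54147153-54147496, 103002 bp from Adra2a, an adrenergic receptor, LBL had 17.5 and 21.3 CPM, against 8.43, 6.48 and 8.07 CPM in PBL (adjusted p = 0.000701 by edgeR), and the other 4 groups lay between 7.36 and 9.76 CPM. LBL thus stood above every other pool at that peak. At chr2:160156536-160156771, in the RefSeq span of the noncoding Gm34741, LBL had 15.6 and 12.2 CPM, against 3.51, 2.78 and 4.40 CPM in PBL (3.7-fold, adjusted p = 0.000201 by edgeR).

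Over the 60 members called higher the median of the group means was 23.2 CPM in LBL, 21.4 CPM in LL, 12.8 CPM in PBL and 17.7 CPM in PL, and over the 23 called lower it was 10.6 CPM in LBL, 12.5 CPM in LL, 21.3 CPM in PBL and 20.0 CPM in PL. Among the falls not named above, chr11:31732989-31733365, 61104 bp upstream of Bod1, had 3.90 and 4.06 CPM in LBL, against 14.7, 12.0 and 11.0 CPM in PBL (adjusted p = 0.00553 by edgeR), and chr13:17879100-17879330 near Rala had 1.30 and 1.02 CPM in LBL, against 4.21, 8.79 and 8.43 CPM in PBL (adjusted p = 0.00192 by edgeR). Both were low in counts, and both were lost when either LBL pool was left out. DESeq2 called 3 members in place of 83, 1 higher and 2 lower, and 12 members were called without LBL 1_2, 12 without LBL 3_4, 45 without PBL 3_4 and 44 without PBL 4_5. The Etv1 and Adra2a peaks were lost without LBL 3_4 and the one between Arglu1 and Fam155a without LBL 1_2. The Kitl peak was called in each of these, and the Irf2bpl and Gm17746 peaks on chromosome 12 as well.

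**Figure D3:**
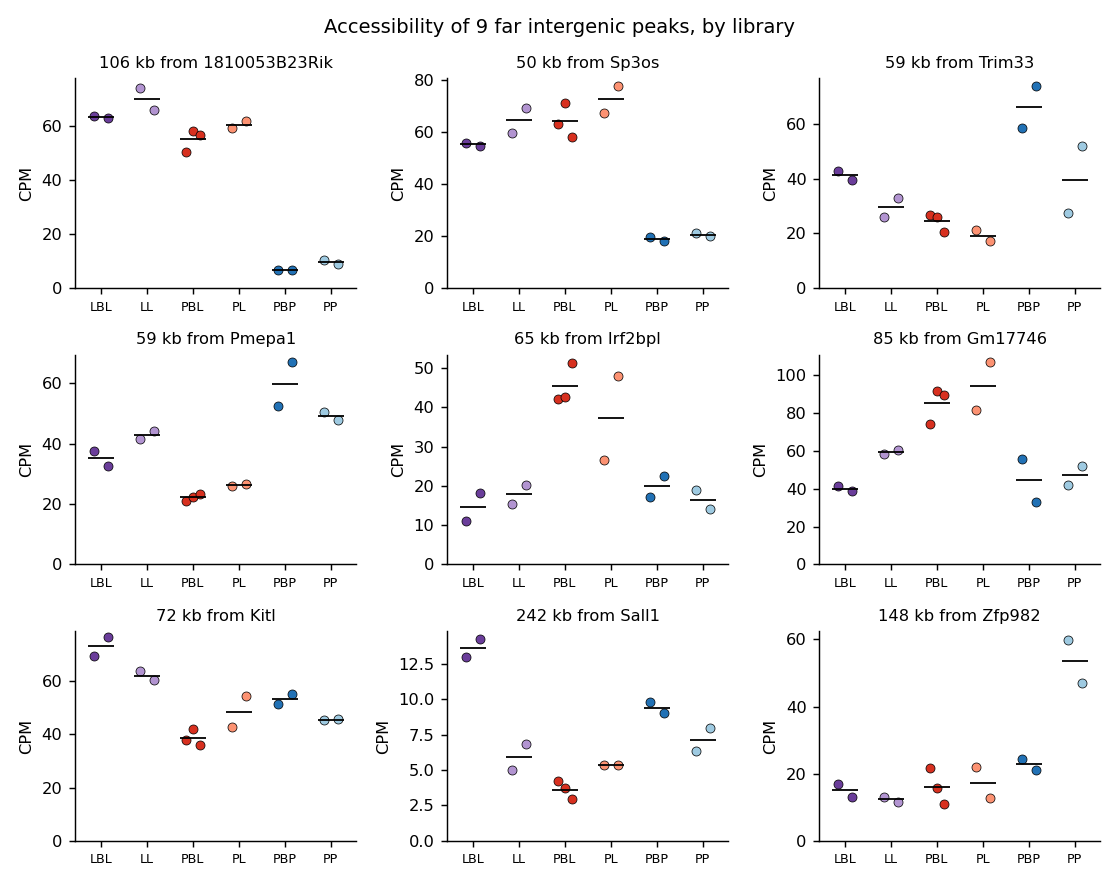
Accessibility of 9 far intergenic peaks in CPM (vertical axis, from 0) in each library (points) with the group mean (line), by group. The peaks 106 kb from 1810053B23Rik and 50 kb from Sp3os are high in every LPS pool; those near Trim33 and Pmepa1 are low after a first LPS; those near Irf2bpl and Gm17746 are high in PBL and PL and lower in LBL and LL; and the one near Zfp982 is high in PP.

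Few members were called between repopulated and never-depleted microglia, and the counts moved with the fit. In PBP against PP, 1 was called higher and 9 lower in edgeR, beside 0.064% and 0.096% of all peaks, and in PBL against PL it was 1 and 1, beside 0.0613% and 0.0213%. In LBL against LL 1 was called higher and 0 lower, beside 0.024% and 0.0267%. At an unadjusted p under 0.05 edgeR gave 232, 248 and 222 of the 2062 members, beside 3652, 4068 and 3023 of all 37516 tested peaks. DESeq2 called 0 members in each of the 3. With the isolation day as a term PBP against PP gave 34 higher and 15 lower, 6 of the 10 calls among them. PBL against PL gave 62 calls without PL 1_2, both of the 2 among them. The peak higher in PBP, chr10:125748837-125749409, lies 216810 bp upstream of Lrig3, in the same gap as the Gm36884 peak shown above, with 74.4 and 106 CPM in PBP, against 37.9 and 53.9 CPM in PP (log2 0.95 ± 0.20, adjusted p = 0.00849 by edgeR). At chr15:5872142-5872437, between Ptger4, a prostaglandin receptor, and Dab2, LBL had 13.0 and 11.2 CPM, against 4.99 and 2.41 CPM in LL (log2 1.73 ± 0.39, adjusted p = 0.0376 by edgeR). At chr15:50108795-50109243, 718278 bp from Trps1, PBL had 14.0, 13.0 and 11.0 CPM, against 18.4 and 34.1 CPM in PL (log2 -1.10 ± 0.25, adjusted p = 0.0359 by edgeR). The peak higher in PBL than in PL was the one near Bmper. The Lrig3 call was lost without PBP 3_4, without PP 1_2 and with promoter scaling. The call in LBL against LL was lost without any one of its 4 pools, and both in PBL against PL without any PBL pool and without PL 3_4.

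The falls in PBP were gathered in a small part of chromosome 4. Of the 9, 6 lay in 2 regions, picked after their values were seen, that also held 13 of the 51 falls in PL. The first, chr4:145774371-147423959, holds a family of zinc-finger genes, and 8 RefSeq genes named Zfp lie wholly within it. It held 10 members, 8 of them tested, of which 5 were called lower in PBP and 7 lower in PL, each against PP, and none in either direction in PBL against PBP. At chr4:147342983-147343938, PL had 21.9 and 12.8 CPM and PBP had 24.4 and 21.1 CPM, against 60.0 and 46.9 CPM in PP. At chr4:147123379-147123572, PL had 2.96 and 3.73 CPM and PBP had 1.83 and 1.51 CPM, against 13.7 and 14.0 CPM in PP. The LBL, LL and PBL pools, with 0.805 to 6.48 CPM, were as low there, so the PP pools alone stood out. Where a region holds similar gene copies, reads may be hard to place; how such reads were treated is not stated by the labels, and their part in these values was not tested.

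The other, chr4:3067523-3090367, held 9 members over 22845 bp, with Vmn1r2, a pheromone receptor gene, as the nearest. Their summed level was 149 and 121 CPM in PL and 169 and 201 CPM in PBP, against 297 and 263 CPM in PP. Of the 9, 6 were called lower in PL, 1 lower in PBP, and 2 lower in PBL against PBP. At chr4:3082993-3084292, PL had 67.6 and 51.7 CPM, against 123 and 122 CPM in PP, with 70.8 and 86.0 CPM in PBP. The summed level was highest in the PP pools and lower in all others. The falls in PBP against PP were lost in DESeq2, and leaving out single pools left 0 to 3 of the 10 calls. With the isolation day as a term, the falls in PBP at chr4:147123379-147123572 and chr4:147423698-147423959 were lost in edgeR as well, and that at chr4:147342983-147343938 was kept.

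Gene lists show which kinds of gene have far intergenic peaks around them. The lists of 36 inflammatory cytokines, chemokines and NF-kB targets and of 35 microglial identity genes had 14 and 68 members. Those of 21 AP-1 and immediate early genes and of 24 disease-associated genes had 15 and 5. The 27 genes listed as negative regulators of LPS signalling and the 29 interferon-stimulated genes were the nearest gene of none. Tnfaip3, which also shuts off NF-kB signalling, was listed with the NF-kB targets and had 3 members. The identity members belonged to 9 genes, with 18 at Maf, 16 at Klf4, 13 at Sall1 and 12 at Runx1, all genes for transcription factors. The loci described one by one below were picked from these lists after their values were seen. Of the 14 inflammatory members 3 rose in PL against PP (median log2 0.56), and 4 rose and 1 fell in PBL against PBP (median 0.30). Of the 68 identity members 4 rose and 1 fell in PL (median 0.20), 5 rose and 7 fell in PBL against PBP (median -0.10), and 6 rose and 1 fell in LBL against PBL (median 0.25). Of the 15 AP-1 members 5 rose in PL (median 0.43) and 3 in PBL against PBP (median 0.20), with no falls. The 4 and 5 rises of identity members, 5.88% and 7.35% of those tested, lie below the 9.26% and 10.6% over all tested members, and near the 4.77% and 6.74% over all tested peaks; their 7 falls in PBL are 10.3%, beside 6.21% and 3.23%, and their 6 rises in LBL 8.82%, beside 2.91% and 0.973%. The inflammatory and AP-1 rises are 21.4% and 33.3% in PL and 28.6% and 20.0% in PBL, each over 14 or 15 members. Over all tested peaks these medians were 0.01, 0.00 and -0.01 for the 3 comparisons.

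Sall1 encodes the transcription factor that sets microglia apart from other macrophages. Its 13 members lie 90013 to 597286 bp upstream of its start, in the gap before Tox3. In PBL 12 of them had a lower level than in PBP and 4 were called lower, with a median log2 of -0.70, while in PL 9 were lower than in PP and 1 was called. Between the arms, 12 were higher in PBP than in PP (median log2 0.39). PBL against PL had 8 higher and 5 lower (median 0.04), and none was called in either. The member with the smallest p in PBL against PBP, chr8:89392722-89393163, had 21.3 and 30.4 CPM in PL, against 52.6 and 49.9 CPM in PP (log2 -0.97 ± 0.23, adjusted p = 0.00176 by edgeR). It had 30.2, 27.8 and 24.6 CPM in PBL, against 58.6 and 63.4 CPM in PBP (log2 -1.17 ± 0.18, adjusted p = 9.93e-08 by edgeR). LBL with 40.9 and 40.1 CPM and LL with 35.9 and 37.0 CPM lay between the first-LPS and the PBS pools, without overlap with either. Close by, chr8:89396527-89397008 had 13.3, 16.7 and 19.8 CPM in PBL, against 28.1 and 40.7 CPM in PBP (adjusted p = 0.000991 by edgeR).

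A weaker Sall1 member, chr8:89286154-89286501, had 4.21, 3.70 and 2.93 CPM in PBL, against 9.76 and 9.05 CPM in PBP (log2 -1.42 ± 0.40, adjusted p = 0.00869 by edgeR). In LBL it had 13.0 and 14.2 CPM, the highest of all pools, against the PBL values above (3.87-fold, log2 1.95 ± 0.34, adjusted p = 0.000121 by edgeR). LL with 4.99 and 6.84 CPM did not follow, and DESeq2 did not call the rise. The member nearest to Sall1, at 90013 bp, did not pass the test in either first-LPS comparison (log2 -0.08 and 0.04), so the falls were not shared by every open site of the gap.

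**Figure D4:**
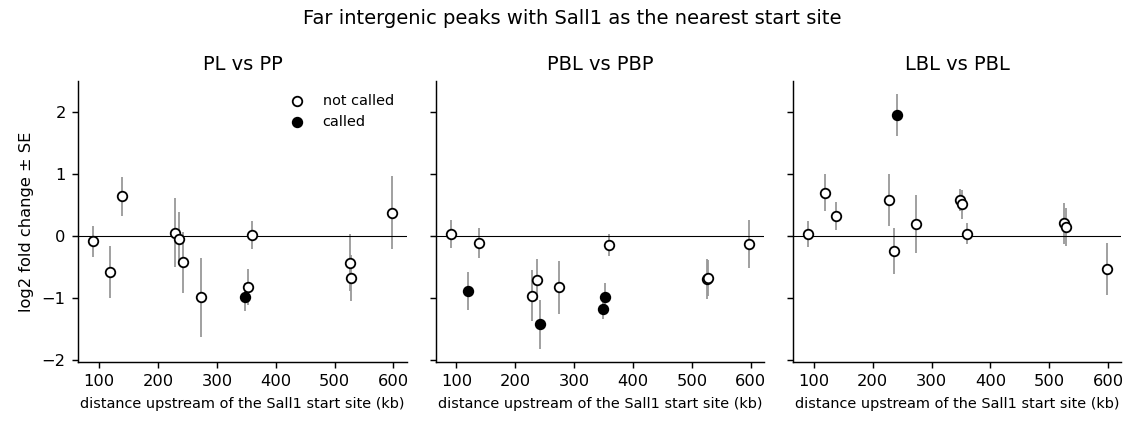
Log2 fold change ± SE (vertical) of the 13 far intergenic peaks with Sall1 as the nearest start site, against their distance upstream of it in kb (horizontal), for 3 comparisons. Filled points were called by edgeR: 1 lower in PL against PP, 4 lower in PBL against PBP and 1 higher in LBL against PBL.

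Other regulators had members that moved in both directions. Maf, a factor of mature macrophages, had a member at chr8:115494276-115494812 with 24.9 and 32.0 CPM in PL, against 16.8 and 14.0 CPM in PP (adjusted p = 0.043 by edgeR), and with 11.7 and 11.2 CPM in LBL, against 23.9, 24.1 and 23.5 CPM in PBL (log2 -1.05 ± 0.25, adjusted p = 0.00863 by edgeR). LBL lay below every other pool there. Another Maf member, chr8:115650050-115650756, did the reverse, with 42.1, 46.3 and 43.6 CPM in PBL, against 57.4 and 70.9 CPM in PBP (adjusted p = 0.0174 by edgeR), and with 65.6 and 75.1 CPM in LBL, against the same PBL pools (log2 0.68 ± 0.15, adjusted p = 0.00346 by edgeR). Mef2a, a factor that helps to set up microglial enhancers, had a strong member at chr7:67445318-67446226 of the same form. It had 67.4, 68.9 and 71.1 CPM in PBL, against 104 and 110.1 CPM in PBP (log2 -0.62 ± 0.12, adjusted p = 9.3e-05 by edgeR), and 98.8 and 94.9 CPM in LBL, against the same PBL pools (log2 0.48 ± 0.12, adjusted p = 0.0171 by edgeR). PL with 78.3 and 80.9 CPM was little below PP with 87.3 and 95.8 CPM and did not pass. Around Klf4, a stress- and LPS-responsive factor, 15 of 16 members were higher in PL than in PP and 3 were called higher. In PBL 9 were higher and 7 lower than in PBP (median log2 0.21), and 2 were called higher. No falls were called in either comparison. The one called in both, chr4:55650884-55651786, rose 1.52-fold in PL and 1.5-fold in PBL.

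Near genes of the inflammatory response the called members mostly rose. Map3k8 encodes a kinase that links Toll-like receptors to ERK, and 2 of its 5 members were called higher in both arms. At chr18:4278240-4278760, PL had 14.2 and 22.9 CPM, against 8.41 and 7.98 CPM in PP (log2 1.19 ± 0.38, adjusted p = 0.0355 by edgeR), and PBL had 19.7, 18.04 and 16.9 CPM, against 3.66 and 6.03 CPM in PBP (log2 1.91 ± 0.36, adjusted p = 2.29e-05 by edgeR). Its neighbour at chr18:4265803-4266865 rose 1.96-fold in PL and 1.95-fold in PBL, and at both the LBL and LL pools lay in or close to the range of the first-LPS pools. For Nfkbiz, an inducible NF-kB cofactor, the member at chr16:55754297-55754776 had 28.1, 28.7 and 26.4 CPM in PBL, against 7.32 and 3.02 CPM in PBP (5.07-fold, log2 2.34 ± 0.32, adjusted p = 3.18e-09 by edgeR). In PL it had 15.4 and 24.5 CPM, against 10.5 and 13.0 CPM in PP, which did not pass (adjusted p = 0.162 by edgeR). Near Tnfaip3, which shuts off NF-kB signalling, chr10:19068404-19068802 rose 2.69-fold in PBL (adjusted p = 0.00133 by edgeR). The one inflammatory member that fell was chr5:29936518-29936802, 76312 bp upstream of the cytokine gene Il6, with 4.92, 2.78 and 5.87 CPM in PBL, against 11.0 and 12.1 CPM in PBP (adjusted p = 0.0072 by edgeR); it was low throughout, and the call was lost in DESeq2 and without PBL 3_4, PBP 1_2 or PBP 3_4.

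Among AP-1 and related genes, Bach1, a repressor that competes at AP-1-like sites, had 2 members close together that differed in the arms where they were called. At chr16:87635854-87636375, PL had 26.1 and 33.0 CPM, against 14.7 and 16.0 CPM in PP (adjusted p = 0.0285 by edgeR), and PBL had 28.1, 29.6 and 24.9 CPM, against 8.54 and 9.05 CPM in PBP (3.1-fold, adjusted p = 3.19e-06 by edgeR). At chr16:87637986-87638452, PL had 18.4 and 23.4 CPM, against 5.26 and 9.98 CPM in PP (2.72-fold, adjusted p = 0.0065 by edgeR), while PBL with 10.5, 15.7 and 13.9 CPM did not differ from PBP with 13.4 and 13.6 CPM by the test (adjusted p = 0.975 by edgeR). The difference between the arms at that peak did not pass its own test. The Bach2 member at chr4:32179708-32180263 rose 2.32-fold in PL and 2.06-fold in PBL, and 2 of 7 Jun members rose in PL. Of the disease-associated list, which marks microglia around plaques, 1 of 4 tested members was called, chr19:34420383-34421763 near Ch25h, the cholesterol 25-hydroxylase gene, which rose 1.86-fold in PBL (adjusted p = 0.00135 by edgeR), a call lost without PBP 1_2.

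The 5 members with the highest mean level over all libraries were open in every group, and 4 of them were called in PL against PP. The strongest, chr6:95456260-95457067, 122267 bp from AY512915 in the gap before Suclg2, ranged between 73.6 and 153 CPM over the 13 pools. It had 111 and 146 CPM in PL, against 73.6 and 74.9 CPM in PP (log2 0.80 ± 0.15, adjusted p = 6.15e-05 by edgeR), but 103, 119 and 124 CPM in PBL, against 92.8 and 115 CPM in PBP, which did not pass (adjusted p = 0.397 by edgeR). The one 83229 bp upstream of Hgf, hepatocyte growth factor, rose in both arms, 2.31-fold in PL (adjusted p = 1.32e-08 by edgeR) and 1.44-fold in PBL (adjusted p = 0.00194 by edgeR), the last call lost in DESeq2 and without PBP 1_2. The one near Trib1, at chr15:59727981-59728669, rose 1.41-fold in PL, and the one near Chd2, at chr7:73617894-73619323, was 1.39-fold lower in PL; both calls were lost in DESeq2, without PL 3_4 and without PP 1_2. The fifth, between Ccnd1 and Tpcn2 at chr7:145111160-145112080, stayed between 90.1 and 119.6 CPM and passed in neither arm.

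Across all groups 515 of the 2062 tested members (24.98%) were called in at least 1 of the 7 comparisons, and 158 (7.66%) in 2 or more. Over all tested peaks the shares were 15.6% and 3.81%. By distance from a start site, 12.1% of the tested members at 50000 to 100000 bp were called in PL against PP, 11.9% at 100000 to 200000 bp, 10.1% at 200000 to 500000 bp and 7.69% beyond, the last over 39 members. In PBL against PBP the shares were 16.2%, 18.6%, 15.6% and 15.4%, and in LBL against PBL 2.95%, 5.34%, 5.84% and 5.13%. The direction was not even along this range. In PBL against PBP 137 were higher and 55 lower at 50000 to 100000 bp, against 12 higher and 28 lower at 200000 to 500000 bp, and in PL against PP the counts were 119 and 25, against 15 and 11. The difference between distances was not tested. Members outside every RefSeq gene span, a split added after the data were seen, had 11.7% and 17.3% called in the first-LPS comparisons, beside 11.7% and 16.8% of all members.

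The share of a library's peak counts that fell in far intergenic peaks sums up the set in 1 value per pool. It was 3.96% and 3.88% in LBL, 3.87% and 3.92% in LL, 3.46%, 3.70% and 3.58% in PBL, and 3.58% and 4.24% in PL, against 3.42% and 3.69% in PBP and 3.40% and 3.36% in PP. Both pools of LBL and of LL lay above all PBS pools, while PBL overlapped PBP. The 9 LPS pools averaged 3.80% ± 0.241 (SD, n = 9), against 3.47% ± 0.152 (n = 4) in the 4 PBS pools, a difference of 0.330 percentage points (exact permutation test, two-sided, p = 0.028). Adjusted over the 2 contrasts made, the p was 0.0559 and did not pass. Among the 6 pools sorted on the same instrument as PP the difference was 0.437 points (exact permutation p = 0.267, with 2 against 4 pools). The 7 pools with BLZ945 averaged 3.67% ± 0.202, against 3.73% ± 0.341 in the 6 vehicle pools, a difference of -0.0589 points (exact permutation test, p = 0.713) whose sign turned without PL 3_4. The 95% binomial interval (Wilson) of the share was 3.37% to 3.44% in PP 1_2, the shallowest library, which covers counting error alone. Within LBL, PBL, PL and PBP the intervals of the pools did not overlap one another.

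**Figure D5:**
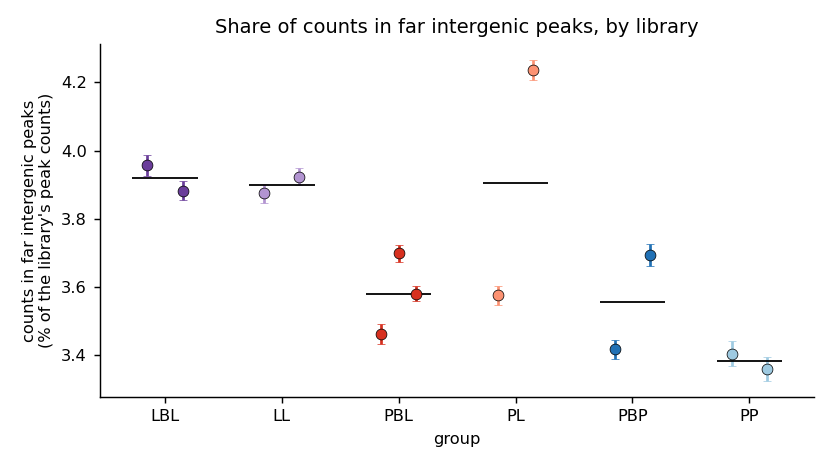
Share of each library's peak counts in far intergenic peaks, in % (vertical axis, not starting at 0), by group, with 95% binomial intervals (bars) and group means (lines). The LBL and LL pools lie between 3.87% and 3.96% and the PP pools at 3.36% and 3.40%, while PL spans 3.58% to 4.24%.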

How the data were processed

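The data are 13 ATAC-seq libraries of sorted microglia. For 1 peak set shared by all libraries the authors deposited a table of estimated counts in steps of 0.5, not normalized and with the pools apart. Per the submitters' processing notes, Bowtie2 2.2.6, cutadapt 1.9.1, Picard 1.126, MACS2 2.1.1, HOMER 4.9.1 and ChIPseeker 1.38 were among the tools, with GRCm38 and mm10; their order and settings, the counting tool and any shift of read ends are not given in the sources used. Widths and distances are in bp, per the file headers.

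Counts were rounded to whole numbers and fitted in edgeR 4.0.16 (R 4.3.3) with TMM scaling, filterByExpr at a minimum count of 10, 6 group means over all 13 libraries and robust quasi-likelihood F tests, adjusted by Benjamini-Hochberg over 37516 peaks and called at an adjusted p under 0.05. Of the 2142 members 80 fell under the filter. CPM is scaled by TMM. The SE is the log2 fold change divided by the square root of F. DESeq2 1.42.0 served as an alternative. Shares of counts were compared by exact two-sided permutation over libraries. Named peaks are, per comparison, up to 5 called members per direction with the smallest p and no overlap between the 2 groups; the 5 with the highest mean CPM; the 5 stretches with most members; the member with the smallest p in each direction for each gene list; and any member called in the difference of responses. The members, lists and tests were chosen with earlier results of these data known. Coding genes on either side and promoter windows come from RefSeq (GRCm38.p6).

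Depth was 927840 to 2772688 counts per library. Nothing in the labels pairs pools across groups. By a chi-square over the members, the LBL, LL, PBP and PP pairs showed no spread beyond counting noise (p = 0.88, 0.329, 0.59 and 0.234). That assumes that each count is 1 independent event, which the steps of 0.5 leave unknown. The summed share of counts in the members nonetheless had 95% binomial intervals that did not overlap within LBL or within PBP. Each pool was kept as a replicate. Alternatives were other scalings, filters, rounding, distance limits, a replicate block, the isolation day as a term, and leaving out each library. On simulated counts for PL against PP, 27.0% of 2-fold and 100% of 4-fold changes were recovered over 37375 peaks. The changed peaks, 100 per fold, were drawn only from peaks above a floor of mean count, and the same spread was set for all libraries. The PL pair varied by more than counting noise and many members have low counts, so these rates need not hold for the members.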

Additional observations from a re-analysis of the deposited data

Results flagged for a closer look

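The first LPS response differed between the arms, by edgeR's test of the difference itself, at 2 members. At chr9:23580157-23580552 near Bmper the log2 response in repopulated microglia exceeded that in never-depleted ones by 2.52, and at chr18:25883190-25883937 near Celf4 it was lower, with a difference of -1.17. In groups of 2 or 3 pools no single pool could be tested for standing apart. Both calls were lost in DESeq2 and when any of several single pools was left out, while 59 members were called without PL 1_2.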

How the results depend on the processing

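Numbers of called members (main values 242 for PL against PP, 346 for PBL against PBP, 6 for LL against PL, 83 for LBL against PBL, 10 for PBP against PP, 2 for PBL against PL, 1 for LBL against LL and 2 for the difference of first LPS response) depended on the tool and on single pools. DESeq2 gave 78, 123, 0, 3, 0, 0, 0 and 0. Scaling on promoter peaks alone gave 4 in PBP against PP, 0 in PBL against PL, 0 in LBL against LL and 1 for the difference. Rounding steps of 0.5 down gave 2 in LBL against LL. With the isolation day as a term PBP against PP gave 49, of which 34 were higher, against 1 of 10 without it. PL against PP gave 331 with that term, with 231 of the 242 main calls among them. Leaving out each library gave 77 to 330, 178 to 324, 0 to 24, 12 to 72, 0 to 3, 0 to 62, 0 to 0 and 0 to 59 in the order above; the highest values of the first, the third, the sixth and the last came without PL 1_2. The share of counts in LPS against PBS pools, 0.330 points higher, was 0.127 (exact permutation p = 0.0867) for members beyond 100000 bp, 0.437 within the Astrios sorter (exact permutation p = 0.267), and 0.275 to 0.405 with each library left out. The share in BLZ945 against vehicle pools, -0.0589 points, was -0.133 to 0.0425 with each library left out and turned its sign without PL 3_4. The causes were not tested. A fit with the replicate number as a replicate block gave 255, 304, 7, 62, 15, 2, 2 and 12 calls in the same order. Same-numbered pools did not deviate together (correlation -0.0374 to 0.117 over 15 pairs of groups, 1 of them over 0.1), so the numbers are not taken as pairs. Of 57 named calls, 26 were kept under every alternative run and 31 were lost under at least 1; 7 further named peaks and comparisons were not called under any, and 0 of the 64 changed direction. Tested members had a median of 12 to 33 counts per library. In simulated data for PL against PP, with the pools and depths of these libraries, 27.0% of 2-fold changes were recovered. Only peaks above a floor of mean count were changed there, with the same spread in all libraries, so the rate need not hold for the members.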
